A study of Mus musculus with 17 samples.

Results

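The 9 genes described here regulate the small GTPases Ral and Rab5, or are the Ral GTPases themselves: Ralgapa1, Ralgapa2, Ralgapb, Rala, Ralb, Ralgds, Rin1, Rin2 and Rin3. They were found by symbol among the 55421 genes of the deposited count table, and the set was chosen from the measured levels, because Ralgapa2 and Rin2 separated the Ephb4 genotypes after bleomycin without overlap. For that reason the comparison of genotypes after bleomycin is given for these genes as a description, with no test, and the same holds for Ralgapa2 and Rin2 in every comparison that uses a bleomycin library. All 9 genes were among the 10481 genes that passed the filter on low values (a CPM above 10 in at least 2 libraries, CPM being the count scaled to a common library size).

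RNA was sequenced from cells cultured out of the lungs of 17 mice, 1 library per mouse, with 66540022 to 120554468 counts per library (median 93075927). Every mouse, controls included, was Ephb4f/f; Col1a2-CreERT2, which carries a floxed Ephb4 gene and a Cre recombinase that needs tamoxifen and is driven by a promoter active in Col1a2-expressing cells. Ephb4 control mice received corn oil and Ephb4 CKO mice received 4-hydroxytamoxifen (1 mg per day on 5 days) at 4 weeks of age, and both were given PBS or the lung-injuring drug bleomycin (1.2 U/kg, into the trachea) at 6 weeks, with harvest on day 14. The cells were passaged 1 time with no further treatment. There were 4 Ephb4 control PBS, 5 Ephb4 CKO PBS, 4 Ephb4 control bleomycin and 4 Ephb4 CKO bleomycin mice. The deletion itself can take place only in the cells that drive the Cre. Whether it changed other cells of the culture indirectly was not tested.

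Ral GTPases switch between a GDP-bound and a GTP-bound state. Exchange factors such as RalGDS load them with GTP downstream of Ras, while the RalGAP complex, a catalytic subunit (Ralgapa1 or Ralgapa2) paired with the scaffold Ralgapb, returns them to the GDP-bound state, and GTP-bound Ral engages the exocyst to direct vesicles to the plasma membrane. The Rin proteins bind Ras and carry a Vps9 domain that loads Rab5, the GTPase of early endosomes, so the set links Ras signaling to secretion and to endocytosis.

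Ephb4, the targeted gene, had 16.2 ± 15.5 CPM (SD, n = 4) in Ephb4 control PBS, 9.79 ± 8.20 (SD, n = 5) in Ephb4 CKO PBS, 39.0 ± 21.6 (SD, n = 4) in Ephb4 control bleomycin and 9.77 ± 3.76 (SD, n = 4) in Ephb4 CKO bleomycin libraries. The genotypes overlapped after PBS and after bleomycin, and neither difference passed edgeR's quasi-likelihood test (adjusted p = 0.999767 and 0.219682, Benjamini-Hochberg). These are levels of whole cultures, so they cannot show whether the gene was deleted in the cells that drive the Cre. The paper reports lower mRNA and protein of the targeted gene in cultured lung fibroblasts. After PBS and after bleomycin alike, the genotypes also differ in 4-hydroxytamoxifen, and its effect was not separated from that of the deletion. The labels call the cells primary fibroblasts, but the mean log2 CPM of 18 macrophage markers was above that of 12 fibroblast markers in 13 of the 17 libraries: 3 of 4 Ephb4 control PBS, 5 of 5 Ephb4 CKO PBS, 1 of 4 Ephb4 control bleomycin and 4 of 4 Ephb4 CKO bleomycin. In bulk RNA, fewer cells of a type and less RNA per cell cannot be told apart. Xist and Y chromosome genes went against the labelled sex in 3 libraries, those of mouse 2 of the Ephb4 control bleomycin group and of mice 1 and 2 of the Ephb4 CKO bleomycin group. The numbers in the mouse names start with 11 or 12, and all 4 Ephb4 control bleomycin mice were of number series 12, against 1 of 4 Ephb4 control PBS, 2 of 5 Ephb4 CKO PBS and 2 of 4 Ephb4 CKO bleomycin mice.

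Ralgapa2 and Rin2 are on the same chromosome. In GRCm38 (GENCODE M21) Rin2 spans chr2:145675215-145887616 on the plus strand and Ralgapa2 spans chr2:146239879-146512344 on the minus strand, with 352.263 kb between them and 9 annotated gene starts, 4 of them protein coding, between their own starts. Ralgapb (chr2:158409848-158499253, plus) and Ralgds (chr2:28513125-28553081, plus) are on chromosome 2 as well. Ralgapa1 (chr12:55602896-55821167, minus) and Rin3 (chr12:102283048-102390855, plus) are on chromosome 12, Rala (chr13:17880571-17944239, minus) on chromosome 13, Ralb (chr1:119470305-119504794, minus) on chromosome 1 and Rin1 (chr19:5050481-5057071, plus) on chromosome 19. The values are counts of whole genes, so no exon or UTR was singled out.

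The promoters of the 3 genes with the largest differences between the genotypes after bleomycin are shown so that the pair that was higher in Ephb4 CKO cells can be set beside the gene that was lower. Each is the RefSeq window (GRCm38.p6) from 250 bases before to 50 bases after a start, 5′ to 3′ on the gene's strand. Capitals mark GGGCGG on either strand, the core that Sp1 family factors bind.
Ralgapa2 (chr2:146511955-146512254, minus): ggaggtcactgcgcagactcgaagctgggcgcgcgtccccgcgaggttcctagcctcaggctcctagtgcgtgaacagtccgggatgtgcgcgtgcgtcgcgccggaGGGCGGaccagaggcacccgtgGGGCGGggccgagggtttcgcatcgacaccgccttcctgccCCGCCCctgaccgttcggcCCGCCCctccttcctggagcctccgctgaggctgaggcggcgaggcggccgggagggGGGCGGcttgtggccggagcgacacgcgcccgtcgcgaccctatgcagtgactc
Rin2 (chr2:145785866-145786165, plus): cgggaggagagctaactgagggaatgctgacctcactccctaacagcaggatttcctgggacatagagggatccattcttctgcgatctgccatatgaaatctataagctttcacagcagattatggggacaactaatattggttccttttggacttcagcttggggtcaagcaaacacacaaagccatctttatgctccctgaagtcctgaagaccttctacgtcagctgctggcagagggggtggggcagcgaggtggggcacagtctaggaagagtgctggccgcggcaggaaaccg
Rin1 (chr19:5050565-5050864, plus): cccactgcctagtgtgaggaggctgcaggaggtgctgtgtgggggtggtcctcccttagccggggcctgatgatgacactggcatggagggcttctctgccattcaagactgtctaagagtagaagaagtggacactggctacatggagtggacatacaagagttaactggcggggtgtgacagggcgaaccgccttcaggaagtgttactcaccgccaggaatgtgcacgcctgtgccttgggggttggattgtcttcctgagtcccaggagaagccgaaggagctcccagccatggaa

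The Ralgapa2 window held 5 of these motifs and had a GC content of 73.3%, against a median of 52.7% over 32851 mouse promoter windows of the same length. The Rin2 (52.3% GC) and Rin1 (57.7% GC) windows held none. All 3 windows printed lie inside the genes as GENCODE draws them, downstream of the annotated 5′ ends. The Rin2 window starts at chr2:145785866, far from the annotated 5′ end at chr2:145675215. No window at that end was searched, so the absence of the motif holds for the internal start only. Over all 9 genes the table had 13 windows, of which 9, in Ralgapa2, Ralgapb, Rala, Ralb, Ralgds and Rin3, held GGGCGG (35.7% of all windows). CACGTG, an E-box, was in 2 windows (Ralb and Ralgds, 7.15% of all windows). GAGGAA, the core bound by the myeloid factor PU.1, and TGANTCA, the AP-1 motif, were in 0 of the 13 windows (28.3% and 7.81% of all windows). Both strands were searched and none of these motifs overlapped another kind in the windows printed. These are matches of letters only.

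Per kilobase of exon, the Ral GTPases and Ralgds were the most abundant of the set. Averaged over the 17 libraries, Ralgds had 17.0 ± 9.13 CPM per kb (SD), Rala 15.8 ± 3.60, Ralb 13.6 ± 1.54 and Rin2 10.6 ± 4.62. The RalGAP subunits were lower, with Ralgapb at 6.28 ± 0.783 CPM per kb, Ralgapa1 at 4.30 ± 1.01 and Ralgapa2 at 2.07 ± 0.685. Rin3 had 2.96 ± 1.44 CPM per kb and Rin1 1.84 ± 1.62, and Rin1 also had the lowest raw counts of the set, down to 73 in a library. Neighbours in the order of these means lay within their combined SDs, except Ralgapb and Ralgapa1. In the plot of every library, Ralgapa2 and Rin2 stand low in the Ephb4 control bleomycin mice and Rin1 stands high in them.

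**Figure D1:**
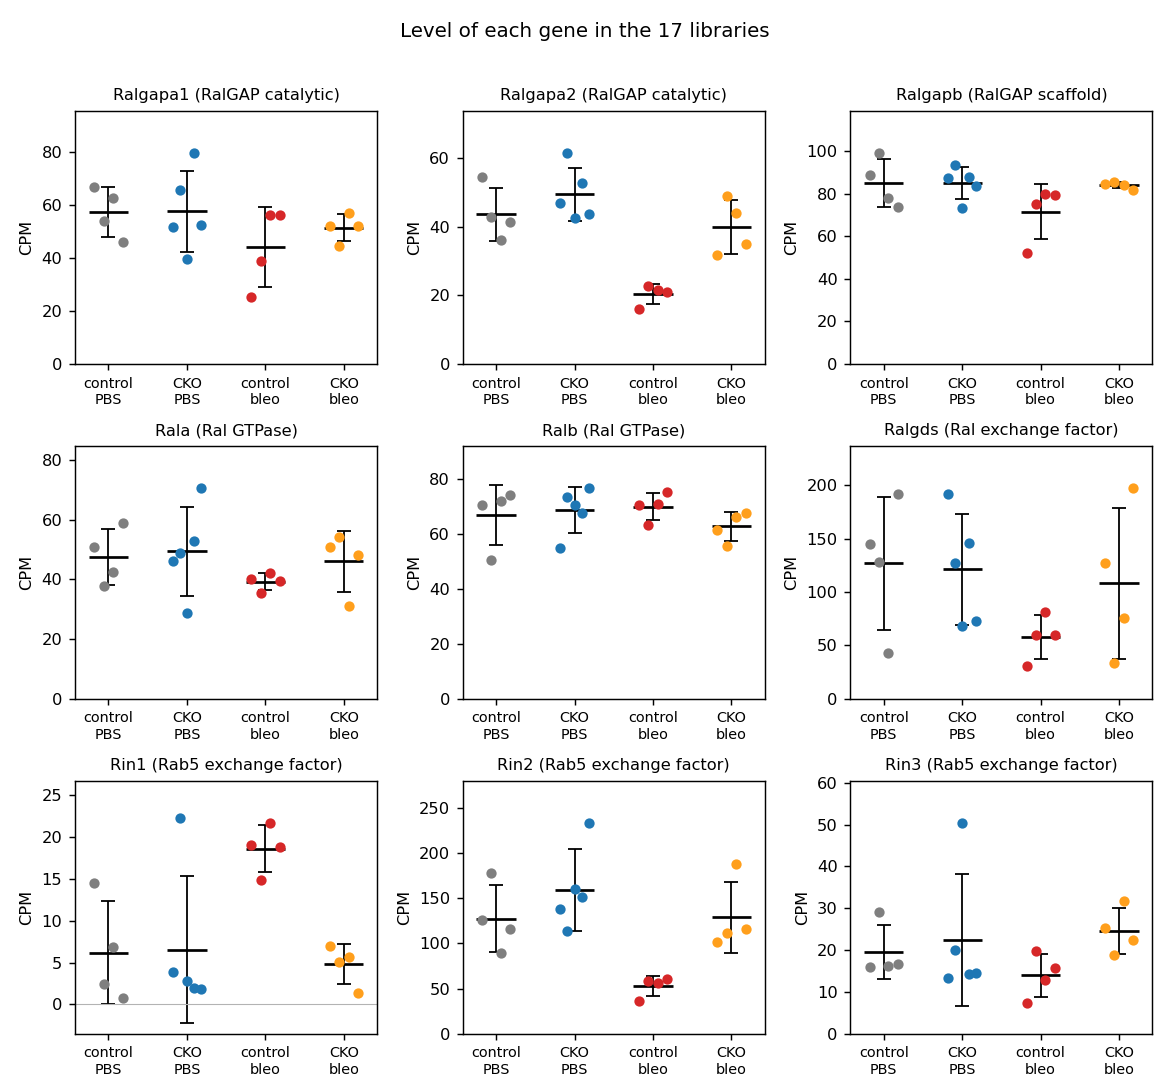
Level of each gene in CPM (y axis, linear) in the 4 groups (x axis); points are libraries, the wide line is the mean and the bar is 1 SD. Ralgapa2 lies between 16.1 and 22.6 CPM in the 4 Ephb4 control bleomycin mice and at 31.8 CPM or more in all other mice, while Ralb stays between 50.6 and 76.6 CPM in all 17.

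Ralgapa2, a catalytic RalGAP subunit, was lowest in the Ephb4 control bleomycin mice. Its level was 54.3, 42.8, 36.1 and 41.3 CPM in Ephb4 control PBS mice 1 to 4, and 47.0, 61.3, 42.6, 52.6 and 43.7 CPM in Ephb4 CKO PBS mice 1 to 5. After bleomycin it was 16.1, 22.6, 21.6 and 20.9 CPM in Ephb4 control mice and 31.8, 48.9, 44.0 and 35.0 CPM in Ephb4 CKO mice. All 4 Ephb4 control bleomycin values were below all 13 others, and the other 3 groups overlapped one another. The highest Ephb4 control bleomycin value (22.6 CPM) and the lowest Ephb4 CKO bleomycin value (31.8 CPM) are the pair that sets the separation behind the choice of this gene. The group means were 49.4 ± 7.70 CPM (SD, n = 5) in Ephb4 CKO PBS, 43.6 ± 7.69 (SD, n = 4) in Ephb4 control PBS, 39.9 ± 7.89 (SD, n = 4) in Ephb4 CKO bleomycin and 20.3 ± 2.88 (SD, n = 4) in Ephb4 control bleomycin mice.

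As a description, after bleomycin Ralgapa2 stood higher in the Ephb4 CKO mice by a log2 fold change of 0.98 (SE 0.18), a ratio of 1.97. Against PBS its log2 fold change with bleomycin was -1.10 (SE 0.18) in Ephb4 control mice and -0.31 (SE 0.17) in Ephb4 CKO mice. Without the 3 libraries that went against their sex label, the difference between the genotypes after bleomycin was 0.98 (SE 0.23). Among the mice of number series 12 it was 1.02 (SE 0.24). The first value sets Ephb4 CKO mice of number series 11 against control mice of number series 12. The second rests on Ephb4 CKO bleomycin mice 1 and 2, both against their sex label, so neither value is free of both limits. With the fibroblast marker level of each library as a covariate the difference was 0.91 (SE 0.23), and with the macrophage marker level 0.91 (SE 0.21). Neither marker level overlapped between the 2 bleomycin groups. The fibroblast level (mean log2 CPM) was 7.32 to 8.11 in Ephb4 control and 0.0064 to 6.10 in Ephb4 CKO bleomycin mice. The macrophage level was 3.70 to 7.84 and 7.91 to 8.44. Both adjusted values therefore extrapolate, and genotype and marker level cannot be told apart here. In the comparison the choice did not use, Ephb4 CKO against control after PBS, the log2 fold change was 0.18 (SE 0.17) and did not pass edgeR's quasi-likelihood test (adjusted p = 0.999767, Benjamini-Hochberg).

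Ralgapa1, the other catalytic subunit, and Ralgapb, the scaffold that both catalytic subunits need, varied less. Ralgapa1 was at 57.3 ± 9.25 CPM (SD, n = 4) in Ephb4 control PBS, 57.7 ± 15.3 (SD, n = 5) in Ephb4 CKO PBS, 44.1 ± 15.0 (SD, n = 4) in Ephb4 control bleomycin and 51.4 ± 5.10 (SD, n = 4) in Ephb4 CKO bleomycin mice. Its 4 groups overlapped, and the lowest value of all, 25.1 CPM, was that of Ephb4 control bleomycin mouse 1. In that mouse the mean log2 CPM of the macrophage markers was 3.70, against 7.38 to 7.84 in mice 2 to 4 of its group. A link between the 2 was not tested. Without that mouse the difference between the genotypes after bleomycin went from a log2 fold change of 0.22 to 0.0015.

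Ralgapb was at 52.2, 75.2, 79.8 and 79.2 CPM in the Ephb4 control bleomycin mice and at 84.4, 85.5, 84.3 and 81.9 CPM in the Ephb4 CKO bleomycin mice. These groups did not overlap, but the gap between them, 79.8 to 81.9 CPM, was small beside the spread of the Ephb4 control PBS mice (73.7 to 99.0 CPM). The log2 fold change was 0.23 (SE 0.15), and 0.081 without Ephb4 control bleomycin mouse 1. Ralgapb against PBS in Ephb4 control mice had a log2 fold change of -0.25 (SE 0.15) that did not pass edgeR's quasi-likelihood test (adjusted p = 0.434694, Benjamini-Hochberg).

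Rala and Ralb, the 2 Ral GTPases on which the RalGAP complex acts, differed little between groups over all 17 libraries. Rala ranged from 28.7 to 70.6 CPM over the 17 libraries, both extremes being Ephb4 CKO PBS mice (mice 3 and 5). Ralb ranged from 50.6 CPM in Ephb4 control PBS mouse 2 to 76.6 CPM in Ephb4 CKO PBS mouse 5, and its group means lay between 62.6 ± 5.34 (SD, n = 4) in Ephb4 CKO bleomycin and 69.9 ± 4.95 (SD, n = 4) in Ephb4 control bleomycin mice. After bleomycin the Ephb4 CKO minus control log2 fold change was 0.23 (SE 0.24) for Rala and -0.16 (SE 0.14) for Ralb, and both pairs of groups overlapped. Without the 3 libraries that went against their sex label the value of Rala was -0.07 (SE 0.33). Among the mice of number series 12 it was 0.45 (SE 0.15), where both Ephb4 CKO bleomycin mice are among those 3 libraries.

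Ralgds, the exchange factor that loads Ral with GTP, varied widely within groups. It was at 145, 128, 43.0 and 192 CPM in the Ephb4 control PBS mice and at 192, 127, 68.6, 146 and 72.7 CPM in the Ephb4 CKO PBS mice. After bleomycin it was at 31.2, 60.1, 81.0 and 60.0 CPM in the Ephb4 control mice and at 127, 33.1, 75.4 and 197 CPM in the Ephb4 CKO mice. The 2 bleomycin groups overlapped, and the low PBS value of 43.0 CPM came from Ephb4 control PBS mouse 3, which had the highest fibroblast marker level of the PBS mice. Bleomycin against PBS in Ephb4 control mice gave a log2 fold change of -1.13 (SE 0.53, unadjusted p = 0.0506), which did not pass edgeR's quasi-likelihood test after adjustment (adjusted p = 0.350659, Benjamini-Hochberg). With the fibroblast marker level as a covariate this value turned to 0.54 (SE 0.45), and the genotype difference after bleomycin turned from 0.90 (SE 0.53) to -0.65 (SE 0.44). That marker level did not overlap between the bleomycin groups, so the adjusted genotype difference extrapolates.

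Rin2, a Rab5 exchange factor, was likewise lowest in the Ephb4 control bleomycin mice. It was at 125, 178, 89.4 and 116 CPM in the Ephb4 control PBS mice and at 138, 114, 160, 151 and 233 CPM in the Ephb4 CKO PBS mice. After bleomycin it was at 36.0, 58.2, 56.3 and 60.8 CPM in Ephb4 control mice and at 102, 111, 187 and 116 CPM in Ephb4 CKO mice. The 4 Ephb4 control bleomycin mice again lay below all 13 others, whose lowest value was 89.4 CPM in Ephb4 control PBS mouse 3. Group means were 159 ± 44.8 CPM (SD, n = 5) in Ephb4 CKO PBS, 129 ± 39.3 (SD, n = 4) in Ephb4 CKO bleomycin, 127 ± 37.1 (SD, n = 4) in Ephb4 control PBS and 52.8 ± 11.3 (SD, n = 4) in Ephb4 control bleomycin mice.

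The description of Rin2 after bleomycin was a log2 fold change of 1.29 (SE 0.28) for Ephb4 CKO against control mice, a ratio of 2.44. Against PBS it was -1.27 (SE 0.28) in Ephb4 control mice and -0.30 (SE 0.26) in Ephb4 CKO mice. The genotype difference after bleomycin was 1.53 (SE 0.36) without the 3 libraries that went against their sex label. Among the mice of number series 12 it was 1.05 (SE 0.23). As for Ralgapa2, the first value compares different number series and the second rests on Ephb4 CKO mice against their sex label. The genotype difference was 0.94 (SE 0.26) with the macrophage marker level as a covariate and 1.15 (SE 0.35) with the fibroblast marker level. As for Ralgapa2, both adjusted values extrapolate, because neither marker level overlapped between the bleomycin groups. After PBS, which the choice did not use, the log2 fold change was 0.32 (SE 0.26) and did not pass edgeR's quasi-likelihood test (adjusted p = 0.999767, Benjamini-Hochberg).

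Rin1, which loads Rab5 and also activates Abl kinases, stood the other way. It was at 19.0, 14.9, 21.8 and 18.8 CPM in the Ephb4 control bleomycin mice and at 6.95, 5.12, 5.67 and 1.38 CPM in the Ephb4 CKO bleomycin mice. In PBS mice it was at 14.6, 2.45, 6.90 and 0.741 CPM (Ephb4 control) and at 3.92, 22.3, 2.86, 1.91 and 1.81 CPM (Ephb4 CKO). The bleomycin groups did not overlap, with a log2 fold change of -1.96 (SE 0.90) for Ephb4 CKO against control mice, which was -0.98 (SE 0.77) with number series as a covariate. In Ephb4 control mice the bleomycin values lay above the PBS values, the nearest pair being 14.9 and 14.6 CPM, and the log2 fold change of 1.60 (SE 0.89) did not pass edgeR's quasi-likelihood test (adjusted p = 0.411228, Benjamini-Hochberg). Among the mice of number series 12, where the PBS group is that 1 mouse with 14.6 CPM, the value was 0.34 (SE 0.78). The PBS comparison of the genotypes rested on Ephb4 CKO PBS mouse 2 (22.3 CPM): its log2 fold change was 0.09 with that mouse and -1.23 without it.

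Rin3, the third Rab5 exchange factor of the family, was at 7.35, 19.8, 13.0 and 15.6 CPM in Ephb4 control bleomycin and at 25.4, 18.8, 31.7 and 22.5 CPM in Ephb4 CKO bleomycin mice. These groups just overlapped, at 18.8 and 19.8 CPM, with a log2 fold change of 0.82 (SE 0.42). In PBS mice it ranged from 13.3 to 50.3 CPM. Its log2 fold change for bleomycin against PBS was -0.48 (SE 0.41) in Ephb4 control mice (edgeR's quasi-likelihood test, adjusted p = 0.579351, Benjamini-Hochberg).

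**Figure D2:**
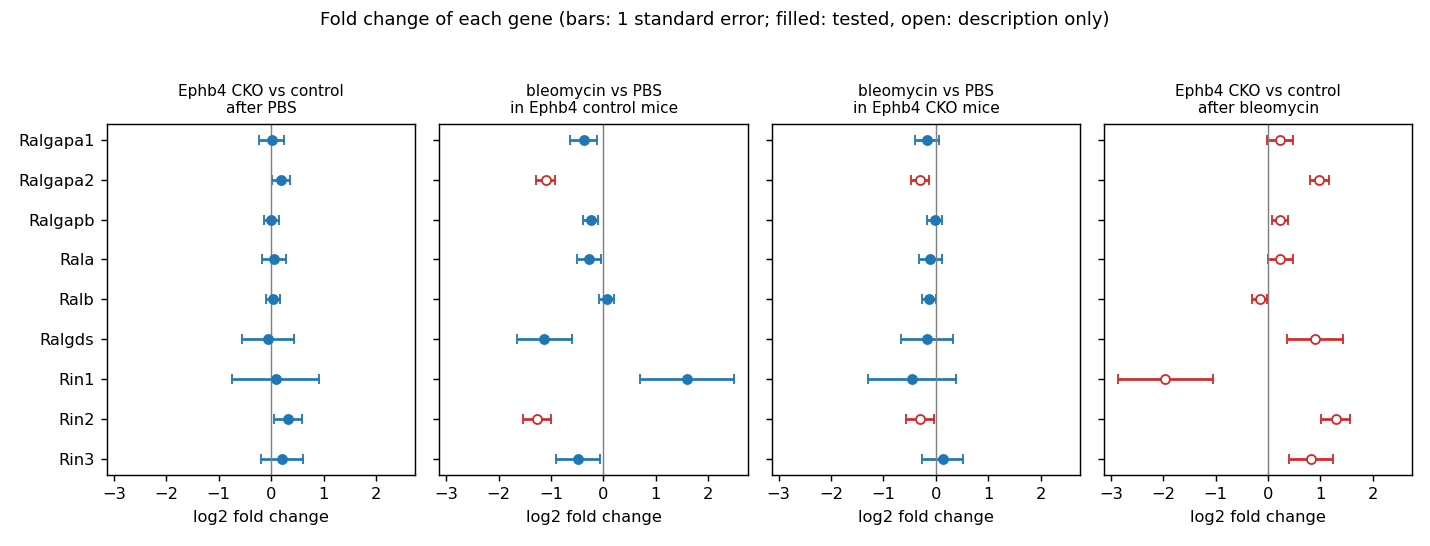
Log2 fold change (x axis) of the 9 genes (y axis) in the 4 comparisons, with bars of 1 standard error from the edgeR fit; filled points were tested and open points are descriptions, because the genes were chosen on those libraries. All 9 lie within 0.33 of 0 after PBS, and after bleomycin the Ephb4 CKO minus control values run from -1.96 for Rin1 to 1.29 for Rin2.

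Ephb4 CKO against control mice after PBS compares 4-hydroxytamoxifen with corn oil in mice given no bleomycin. The Ephb4 level of the whole cultures overlapped between these groups (means of 9.79 and 16.2 CPM). Whether the gene was lost in the cells that drive the Cre cannot be read from that level. As after bleomycin, the effect of such a loss was not separated from that of 4-hydroxytamoxifen. Log2 fold changes ran from -0.07 (Ralgds) to 0.32 (Rin2), 8 above and 1 below 0, with a median of 0.06 against -0.02 over all 10481 genes. By edgeR's quasi-likelihood test 0 of 9 passed at an adjusted p of 0.05 and 0 at an unadjusted p under 0.05, and DESeq2 called 0 of 9. Over all genes the shares were 0% adjusted by edgeR, 1.99% unadjusted and 0.00962% by DESeq2. No group pair of the 9 was free of overlap, against 0.248% of all genes. The exact 2-sided permutation test over the 9 mice gave p from 0.269841 (Ralgapa2) to 1 (Ralgapb), and an adjusted p of 1 over the 9 genes, where the smallest p this design allows is 0.015873.

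Bleomycin against PBS in Ephb4 control mice was tested for the other 7 genes. By edgeR 0 of 7 passed after adjustment and 0 of 7 at an unadjusted p under 0.05, where 0% and 14.3% of all genes did, and DESeq2 called 0 of 7 against 1.6% of all genes. Groups did not overlap for Rin1 among these 7, and also for Ralgapa2 and Rin2, which are not tested here because the choice used the same bleomycin libraries, against 8.91% of all genes. Of the 9 values 2 were above and 7 below 0, with a median of -0.38 against -0.06 over all genes.

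In Ephb4 CKO mice, bleomycin against PBS gave smaller values for these genes: 1 of 9 was above 0 and 8 below, with a median of -0.16 against -0.03 over all genes. By edgeR 0 of the 7 tested genes passed after adjustment or at an unadjusted p under 0.05 (0% and 0.964% of all genes), and DESeq2 called 0 of 7 (0.00962% of all genes). All 9 pairs of groups overlapped, and 0.0859% of all genes had groups that did not. The interaction of genotype and bleomycin, which tests whether the bleomycin effect differed between the genotypes, had 0 of 7 genes at an unadjusted p under 0.05 (3.46% of all genes), 0 after adjustment, and 0 by DESeq2. Over all genes the last 2 counts were 0 as well. The Ephb4 control bleomycin libraries enter both the comparison with PBS in control mice and the comparison of genotypes after bleomycin, so those values are set side by side and are not separate evidence.

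After bleomycin, 7 of the 9 genes were above and 2 below 0 in Ephb4 CKO against control mice, with a median of 0.23 against 0.01 over all genes. The groups did not overlap for Ralgapa2, Rin2, Ralgapb and Rin1, and 23.1% of all 10481 genes had groups that did not overlap in this comparison. The set was chosen on this comparison, so nothing is read from that count. Over all genes edgeR called 0% after adjustment, with 2119 genes (20.2%) at an unadjusted p under 0.05, and DESeq2 called 3.84%.

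Marker levels moved with this comparison. All 12 fibroblast markers kept were lower in Ephb4 CKO than in control mice after bleomycin (median log2 fold change -3.11) and all 18 macrophage markers kept were higher (median 1.11), with an unadjusted edgeR p under 0.05 for 3 and 5 of them. The summed level of the 14 fibroblast markers was 6209 to 13619 CPM in Ephb4 control bleomycin and 78.8 to 1905 CPM in Ephb4 CKO bleomycin mice, and that of the 19 macrophage markers was 1305 to 19738 and 19983 to 40893 CPM. In PBS mice the fibroblast sums were 48.6 to 7515 CPM (Ephb4 control) and 88.3 to 2232 CPM (Ephb4 CKO), and the macrophage sums 9589 to 43355 and 19725 to 35568 CPM. Of the fibroblast markers, Tcf21 was at 3 counts or fewer in 7 libraries, Mfap4 in 6, Fbln1 in 2 and Postn in 1. None of the 5 lymphocyte markers passed the filter. With the macrophage marker level as a covariate the value after bleomycin was -1.31 (SE 0.95) for Rin1 and 0.09 (SE 0.15) for Ralgapb, and with the fibroblast marker level -1.75 (SE 1.24) and 0.13 (SE 0.18). Such covariate values extrapolate, because the 2 bleomycin groups did not overlap in either marker level. Beyond them, the part of these cell markers in the levels of the set was not tested.

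**Figure D3:**
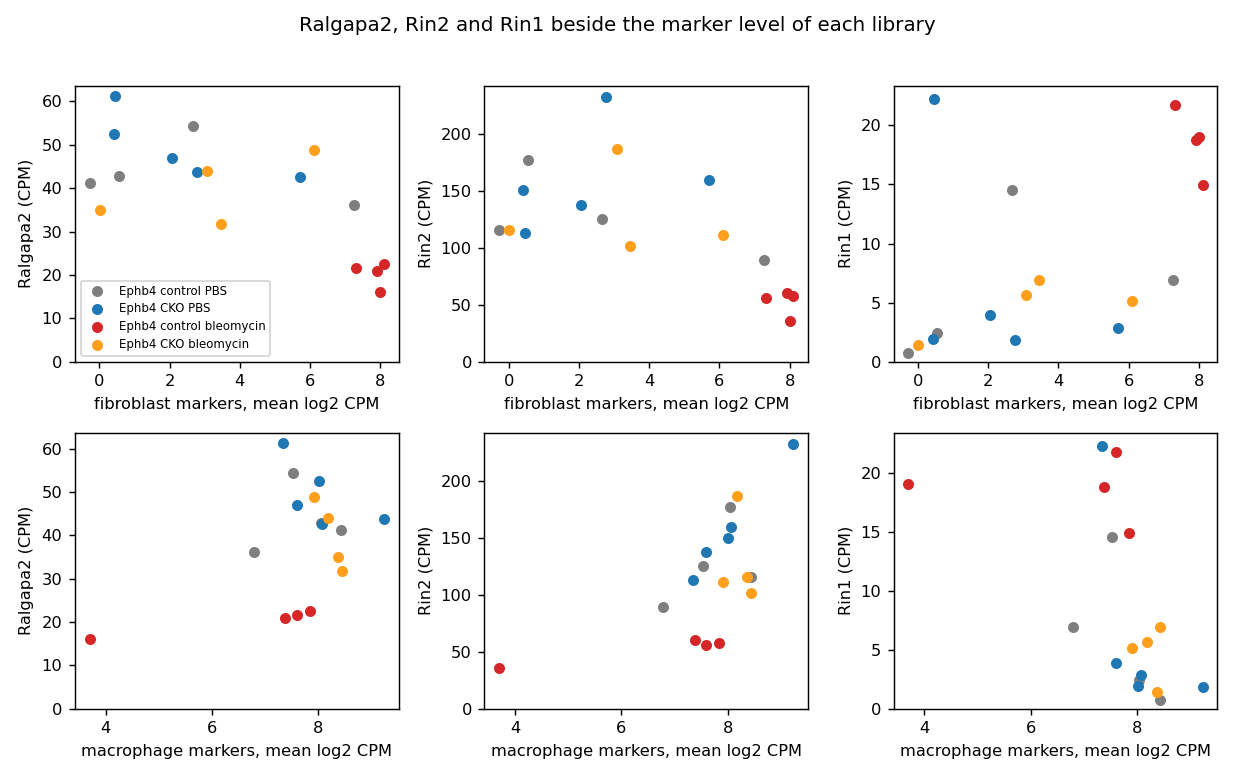
CPM of Ralgapa2, Rin2 and Rin1 (y axes) in the 17 libraries beside the mean log2 CPM of 12 fibroblast markers (upper row, x axis) and of 18 macrophage markers (lower row, x axis), colored by group. Ephb4 control PBS mouse 3, the PBS mouse with the highest fibroblast level (7.26), has 36.1 CPM of Ralgapa2 and 89.4 CPM of Rin2, the lowest of the PBS mice. Ephb4 CKO PBS mouse 3 (fibroblast level 5.70) has 42.6 CPM of Ralgapa2 and 160 CPM of Rin2. Ephb4 CKO bleomycin mouse 2 (6.10, the highest of its group) has 48.9 CPM of Ralgapa2, the highest of its group, and 111 CPM of Rin2.

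The rest of the Ral and Rab5 pathways was read from a list of 50 genes, of which 47 passed the filter (the exchange factors Rgl3, Ralgps1 and Ralgps2 did not). No gene of the list passed edgeR's quasi-likelihood test after adjustment in any comparison, and 0 of all 10481 genes did. For the genotypes after PBS, edgeR had 0 of 47 at an unadjusted p under 0.05, against 1.99% of all genes. DESeq2 called 0, against 0.00962% of all genes, and 32 values were above and 15 below 0. Above 0 the smallest p values were those of the Rab5 subfamily members Rab22a, Rab21 and Rab5c (log2 fold changes 0.28, 0.31 and 0.37). Below 0 they were those of Rras2 and the rabenosyn gene Rbsn (-0.33 and -0.10). After bleomycin 12 of 47 (9 above and 3 below 0) had an unadjusted p under 0.05, the share over all genes being 20.2%, and the groups of 13 genes did not overlap (9 higher and 4 lower in Ephb4 CKO mice, against 23.1% of all genes). The median was 0.25 against 0.01 over all genes.

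Usp6nl, a GTPase-activating protein for Rab5, was the pathway gene with the smallest p after bleomycin. Its level was 43.1 ± 3.12 CPM (SD, n = 4) in Ephb4 control PBS, 42.9 ± 6.70 (SD, n = 5) in Ephb4 CKO PBS, 26.9 ± 2.87 (SD, n = 4) in Ephb4 control bleomycin and 38.6 ± 2.61 (SD, n = 4) in Ephb4 CKO bleomycin mice. For Ephb4 CKO against control after bleomycin the log2 fold change was 0.53 (SE 0.13), with an adjusted p of 0.187076 by edgeR's quasi-likelihood test and 0.010288 by DESeq2 (both Benjamini-Hochberg). For bleomycin against PBS in Ephb4 control mice it was -0.68 (SE 0.14), with an adjusted p of 0.236848 by edgeR's quasi-likelihood test and 0.000236 by DESeq2. It was the 1 gene of the list that DESeq2 called, in both comparisons, against 3.84% and 1.6% of all genes. Both comparisons use the same 4 Ephb4 control bleomycin libraries, so the 2 calls are not separate evidence. Usp6nl was also the 9th gene most like Ralgapa2 (r 0.83) and shares the separation of the bleomycin groups behind that choice.

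Exoc6, an exocyst subunit, and Pik3c3, the lipid kinase that works with Rab5 on early endosomes, were next above 0 after bleomycin, with log2 fold changes of 0.93 (SE 0.30) and 0.39 (SE 0.13). Exoc6 was at 17.1 ± 6.48 CPM (SD, n = 4) in Ephb4 control bleomycin and 32.6 ± 4.27 (SD, n = 4) in Ephb4 CKO bleomycin mice. Below 0 were Ankrd27, another Vps9-domain protein (-0.43, SE 0.15), Rbsn, a Rab5 effector (-0.29, SE 0.11), and Reps1, an endocytic protein of the Ral pathway (-0.42, SE 0.16). The adjusted p (edgeR, quasi-likelihood, Benjamini-Hochberg) of these 5 genes lay between 0.207393 and 0.219311.

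**Figure D4:**
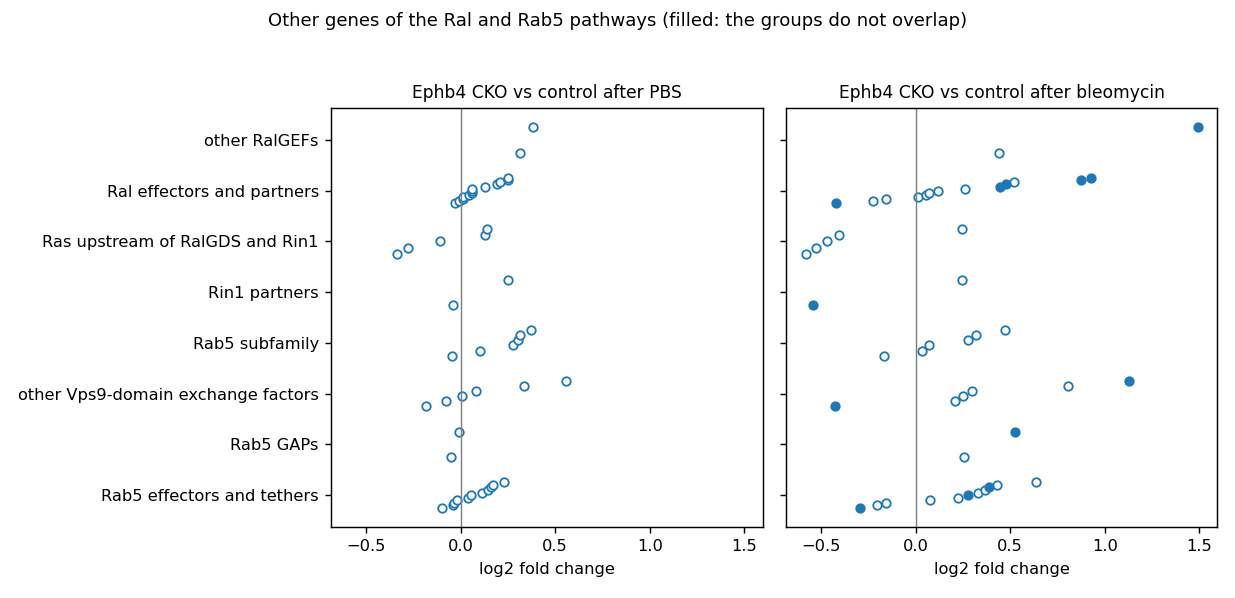
Log2 fold change (x axis) of the 47 pathway genes kept, by role (y axis), for Ephb4 CKO against control mice after PBS (left) and after bleomycin (right); filled points are genes whose groups do not overlap. There are 0 filled points after PBS and 13 after bleomycin, 9 of them above 0.

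In Ephb4 control mice bleomycin against PBS left 8 of 47 pathway genes at an unadjusted p under 0.05, 2 above and 6 below 0, where 14.3% of all genes were. The smallest p values below 0 were those of Usp6nl, of the Rab5 effector Appl2 (-0.74, SE 0.21) and of Exoc6 (-0.91, SE 0.30), and above 0 those of Rabep2, Ankrd27 and Hras (0.36, 0.33 and 0.48). Appl2 was at 35.6 ± 6.86 CPM (SD, n = 4) in Ephb4 control PBS and 21.3 ± 6.27 (SD, n = 4) in Ephb4 control bleomycin mice. In Ephb4 CKO mice 1 of 47, the Rab5 exchange factor Rabgef1 (-0.53, SE 0.24), had an unadjusted p under 0.05 (0.964% of all genes), and DESeq2 called 0 (0.00962% of all genes). Next to it were Rab21 and Eea1 below 0 (-0.25 and -0.42) and Exoc8, Sgsm3 and Rab31 above 0 (0.13, 0.14 and 0.28). The interaction had 2 of 47 at an unadjusted p under 0.05 (3.46% of all genes), Usp6nl (0.53, SE 0.19) and Exoc6 (0.87, SE 0.40). They were followed by Appl2 above 0 (0.60) and by Reps1, Hras and Ankrd27 below 0 (-0.43, -0.55 and -0.35). For the interaction DESeq2 called 0 of the list and 0 of all genes.

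The genes around Ralgapa2 and Rin2 were mostly below the filter. Of 36 annotated genes that start within 1 Mb of either start, 4 passed the filter, all protein coding, and 0 of the 4 had groups without overlap in any of the 4 comparisons, where the shares over all genes were 0.248%, 8.91%, 0.0859% and 23.1%, too few genes to read a difference from those shares. After bleomycin the median log2 fold change of these 4 was 0.14, with 3 above and 1 below 0. Naa20, named after its values were seen, had 0.52 (SE 0.24), with an unadjusted p of 0.0477 and an adjusted p of 0.244 by edgeR's quasi-likelihood test (Benjamini-Hochberg).

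The genes whose levels were most like those of Ralgapa2 over the 17 libraries were Rfk, the riboflavin kinase (Pearson r of log2 CPM 0.88), Pik3cb, a catalytic subunit of phosphoinositide 3-kinase (0.87), and Cbll1, a ubiquitin ligase (0.85). Rin2 was the 4th (0.84), Appl2 the 6th (0.84) and Usp6nl the 9th (0.83). By Spearman's rho Rin2 was the 123rd (0.65), and Appl2 and Usp6nl were not among the first 10. Most like Rin2 were Prkcd, a protein kinase C (0.92), Coro2a, an actin-binding coronin (0.91), and Rbm47, an RNA-binding protein (0.91). Pik3cb was at 27.6 ± 7.48 CPM (SD, n = 4) in Ephb4 control bleomycin against 61.7 ± 6.82 (SD, n = 4) in Ephb4 CKO bleomycin mice, and Prkcd at 134 ± 40.4 against 295 ± 94.3 (SD, n = 4 each). Among the set itself, r with Rin2 was 0.66 for Ralgapb and -0.66 for Rin1. These are descriptions over 17 libraries that share the 4 groups, the marker levels and the total to which every CPM is scaled. Ralgapa2 and Rin2 were both chosen for the same separation of the bleomycin groups, which by itself raises the r between them. Genes most like either follow that separation too, so the bleomycin values of Pik3cb, Prkcd, Appl2 and Usp6nl are not separate evidence.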

How the data were processed

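Per the labels, the submitters' notes and the study's methods, the authors trimmed reads with Cutadapt (1.18 in the notes), aligned 75 bp paired-end, strand-specific reads to GRCm38 with HISAT2 2.1.0 and derived whole-number counts per gene from StringTie coverage; the deposited counts are not normalized. All 17 columns matched a labelled mouse. Because StringTie divides coverage, overlapping or antisense genes may share some signal.

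Here CPM was computed with TMM library sizes, and genes with raw CPM above 10 in at least 2 libraries were kept. edgeR 4.0.16 (R 4.3.3) fitted quasi-likelihood models with 1 mean per group over all 17 libraries and no covariate; p-values were adjusted by Benjamini-Hochberg over the genes kept (threshold 0.05). Each standard error was back-calculated from the F statistic of that contrast. DESeq2 1.42.0 was an alternative. The study used DESeq2 with a batch term; the batch of each library is not given in the sources used here. The labels name 1 mouse per library. Marker levels and r use log2 CPM with a prior count of 2. Permutation tests used scipy 1.17.1. Depth is given as total counts. The procedure was tested on simulated counts.

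The members and lists were chosen with earlier results of these data known. Named are all 9 members, Ephb4, per comparison 3 pathway genes above and 3 below 0, by smallest p (1 of these is not reported here), neighbours whose bleomycin groups do not overlap (there were none), and the 3 genes most like Ralgapa2 and Rin2; Appl2 and Usp6nl among the likest were named after their values were seen. Alternatives were DESeq2, RLE normalization, 2 other filters, only the groups compared, 5 covariates, subsets of libraries and each mouse left out. Gene positions are from GENCODE M21 and promoters from RefSeq.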

Additional observations from a re-analysis of the deposited data

Results flagged for a closer look

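In 6 of the 36 groups of 4 or 5 values (9 genes in 4 groups), 1 mouse stood so far from its nearest neighbour that Dixon's criterion was passed. For independent, normally distributed values chance alone passes it in about 1 of 20 groups. These groups hold linear CPM and share the same 17 libraries, so 6 of 36 is not read as an excess. Ralgapb was low in Ephb4 control bleomycin mouse 1 (52.2 CPM, the next value being 75.2). Ralb was low in Ephb4 control PBS mouse 2 (50.6 CPM, next 70.6), and Rin3 was high in the same mouse (29.1 CPM, next 16.6). Rin1 was high in Ephb4 CKO PBS mouse 2 (22.3 CPM, next 3.92) and Rin3 in Ephb4 CKO PBS mouse 3 (50.3 CPM, against a lowest value of 13.3). Rin2 was high in Ephb4 CKO bleomycin mouse 3 (187 CPM, next 116).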

How the results depend on the processing

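Under every alternative run, Ralgapa2 and Rin2 kept their direction after bleomycin. The Ephb4 CKO minus control log2 fold change ran from 0.86 to 1.09 and from 0.94 to 1.53. Bleomycin against PBS in Ephb4 control mice ran from -1.44 (number series 12 alone, beyond the replicate spread) to -0.98 and from -1.37 to -0.99. Both genes were chosen because the bleomycin genotype groups do not overlap, so leaving out mice could hardly reverse that direction. The kept direction of that comparison is therefore no support for it. Rin1 after bleomycin moved to -0.98 with number series as a covariate. Calls over all genes moved from 0 to 1, 166, 1 and 399 with DESeq2 (PBS genotype, control bleomycin, CKO bleomycin, bleomycin genotype), to 4 in CKO bleomycin within number series 12, and to between 0 and 2 (control bleomycin) and 0 and 1 (bleomycin genotype) when mice were left out (Ephb4 CKO bleomycin mouse 2 and Ephb4 control bleomycin mouse 2). DESeq2 called 1 pathway gene, Usp6nl, in control bleomycin (-0.67) and in bleomycin genotype (0.52), which share the Ephb4 control bleomycin libraries. Some values changed sign; the cause was not tested. For the genotypes after PBS: number series as a covariate, Ralgapb -0.012 and Rin1 -0.36; column runs, Rin1 -0.17; macrophage markers, Ralgapa1 -0.046 and Ralgapb -0.029; fibroblast markers, Ralgapa1 -0.025 and Ralgapb -0.0041; labelled sex, Ralgapa1 -0.040, Ralgapb -0.028 and Rin1 -0.42; number series 12 alone, Ralgapa1 -0.18, Rala -0.085, Ralb -0.13, Ralgds 0.16, Rin1 -0.14 and Rbsn 0.10. With fibroblast markers Ralgds turned to 0.54 (control bleomycin) and -0.65 (bleomycin genotype) and Ralgapb to 0.0033 (CKO bleomycin), which was 0.0061 with no CPM filter. Number series 12 alone gave Ralb -0.031 (control bleomycin) and Rala 0.15 (CKO bleomycin). Without the libraries against their sex label Ralgds was 0.14 and Rab31 -0.14 (CKO bleomycin) and Rala -0.072 (bleomycin genotype). With each mouse left out the PBS genotype values ran from -0.059 to 0.089 (Ralgapb), -0.13 to 0.12 (Ralgapa1), -1.23 to 0.96 (Rin1), -0.34 to 0.21 (Ralgds), -0.32 to 0.46 (Rin3), -0.10 to 0.21 (Rala) and -0.074 to 0.10 (Ralb), Ralb in control bleomycin from -0.028 to 0.13, and CKO bleomycin values from -0.63 to 0.14 (Ralgds), -0.26 to 0.061 (Rala), -0.018 to 0.66 (Rin3), -0.075 to 0.017 (Ralgapb) and -0.69 to 0.87 (Rin1). With Spearman's rho 0 of the 3 genes most like Ralgapa2 and 1 of the 3 most like Rin2 were shared. No paired analysis was possible because the labels do not pair mice across groups. With 4 or 5 mice a group, counts of 73 or more per gene limited these values less than the spread between mice.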
